A study of Mus musculus with 46 samples.

Results

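The 10 genes described here code contents and surface proteins of the secondary (specific) and tertiary (gelatinase) granules of neutrophils: Ltf, Ngp, Camp, Lcn2, Mmp8, Mmp9, Cd177, Olfm4, Chil3 and Ly6g. They were taken by name, and all 10 were found among the 46264 gene symbols of the expression table. The series concerns a mouse model of mucous membrane pemphigoid with autoantibodies against laminin 332, and used RNA of bone marrow derived neutrophils and monocytes, whole blood and skin. Mice were given intravenous immunoglobulin (IVIG, pooled antibody from many donors) or phosphate-buffered saline (PBS). Neutrophils and blood each had 5 IVIG and 5 PBS libraries, monocytes had 3 and 5, and skin had 3 and 3. The remaining 12 libraries form a time course called Ics, with 4 unstimulated libraries (0 h here) and 4 each after 3 h and 6 h of stimulation. What Ics stands for and which cells were stimulated are not stated, and strain, sex, age, autoantibody dose and pooling of animals are not given in the sources used here. No label says which libraries are separate animals or cultures, so p-values measure only the spread between these libraries, which may be technical.

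Neutrophils build their granules in sequence as they mature in the bone marrow. Primary granules, with myeloperoxidase and elastase, are filled at the promyelocyte stage, specific granules at the myelocyte and metamyelocyte stage, and gelatinase granules in band cells. Transcripts of granule proteins are therefore known mostly from precursors in the marrow, and the transcription factor C/EBP epsilon (Cebpe) is required for specific granule genes. The proteins bind iron (lactoferrin, from Ltf) or bacterial siderophores (lipocalin 2, from Lcn2), kill microbes (cathelicidin, from Camp), cleave collagen and gelatin (Mmp8 and Mmp9) or sit on the cell surface (Cd177 and Ly6g).

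Sequence upstream of the start site is shown for 4 genes with some of the courses seen in the Ics experiment. Ltf and Cd177 fell in both intervals, Mmp8 fell by 3 h and did not pass from 3 to 6 h, and Olfm4 rose. Ngp, Camp and Chil3, which passed only from 3 to 6 h, are not shown. RefSeq on GRCm38.p6 held an entry for 9 of the 10 genes, and the stretch shown is the 250 bases before the start, without bases that GENCODE vM21 places in an exon. Capitals mark TTNNGNAA, a loose form of the sequence that C/EBP factors bind, on either strand, and ATAAA, close in form to the TATA box, on the gene strand between 40 and 19 bases before the start. The matches shown of one form do not overlap those of the other.
Ltf (chr9:111019042-111019270, strand +): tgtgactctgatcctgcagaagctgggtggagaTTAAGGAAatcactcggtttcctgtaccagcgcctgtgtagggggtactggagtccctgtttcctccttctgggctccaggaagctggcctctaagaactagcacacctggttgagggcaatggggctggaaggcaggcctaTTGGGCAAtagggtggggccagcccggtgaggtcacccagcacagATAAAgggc
Cd177 (chr7:24760312-24760561, strand -): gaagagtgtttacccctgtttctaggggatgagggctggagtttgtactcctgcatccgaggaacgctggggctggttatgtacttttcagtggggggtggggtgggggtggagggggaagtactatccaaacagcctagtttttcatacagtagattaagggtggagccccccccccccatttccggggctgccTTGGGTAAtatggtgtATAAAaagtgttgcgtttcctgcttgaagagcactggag
Mmp8 (chr9:7558179-7558428, strand +): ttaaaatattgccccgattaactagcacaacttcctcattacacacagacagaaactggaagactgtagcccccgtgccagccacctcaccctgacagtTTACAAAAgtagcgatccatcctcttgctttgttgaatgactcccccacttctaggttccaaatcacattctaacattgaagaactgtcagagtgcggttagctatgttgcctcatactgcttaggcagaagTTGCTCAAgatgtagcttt
Olfm4 (chr14:80000052-80000250, strand +): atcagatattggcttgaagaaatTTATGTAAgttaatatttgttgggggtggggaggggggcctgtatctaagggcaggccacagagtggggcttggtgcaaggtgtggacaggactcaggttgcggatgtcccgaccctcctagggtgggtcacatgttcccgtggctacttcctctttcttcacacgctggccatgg
TTNNGNAA occurred in the 250 bases of 8 of the 9 genes, against 36.8% of 32851 promoters of the same length, and Camp had no match. ATAAA in its window occurred in 2 of the 9 genes, Ltf and Cd177, against 3.97% of all promoters. Olfm4, whose course differed from the others, also had the TTNNGNAA form. A match says only that these letters are present.

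The tissue of the 34 libraries outside the Ics experiment was checked with genes that are not among the 10. Haemoglobin transcripts above 10% of counts were taken as blood, Krt5 plus Krt14 above 100 CPM (counts scaled to a library total of 1000000) as skin, S100a8 plus S100a9 above 10000 CPM as neutrophils, and libraries with none of these as monocytes, with limits set after the values were seen. By these marks 25 of 34 libraries matched their tissue label and 9 went against it. Of the blood libraries 4 went against their label (1 with neutrophil marks, 1 with none of the marks and 2 with skin marks), of the neutrophil libraries 2 (both with blood marks), of the monocyte libraries 1 (neutrophil marks) and of the skin libraries 2 (blood marks). When the table's names were put in the sort order of the submitters' descriptions, 34 of 34 matched, 29 names moved and 22 libraries changed treatment. That order was not used for any test here, but it leaves the treatment of these libraries in doubt. In that order, no name of the Ics experiment moved. Tests outside Ics are therefore given as labelled and again without the 9 libraries, and levels of a tissue are given for the libraries whose marks match. Titles of the 34 libraries also begin with S2, S3 or S5 and carry numbers that recur across tissues. Their meaning is not stated, and 1 number can carry different treatments in different tissues, so they were not used to pair libraries. All 6 skin libraries are S5, as are 2 of 10 neutrophil, 4 of 8 monocyte and 2 of 10 blood libraries. Totals were 24827628 to 29502785 estimated counts in the 12 Ics libraries and 18965431 to 43176537 over all 46.

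In the Ics experiment, 9 of the 10 granule genes fell between 0 h and 6 h and 1, Olfm4, rose. Ltf fell by 1.13 and Cd177 by 1.12 on the log2 scale, the only members to fall at least 2-fold with TMM scaling, whereas Ngp, Camp and Ly6g also did when libraries were scaled by their totals alone. A fall at adjusted p under 0.05 was found for 30.4% of 14996 genes tested and a rise for 29.6%, and a fall of at least 2-fold for 13.4% (edgeR, Benjamini-Hochberg). The median change of the 10 genes was -0.77, against -0.06 over all genes tested. Together the 10 genes held 5.67 to 5.95% of all counts in the 4 libraries at 0 h, 4.13 to 4.85% at 3 h and 2.80 to 3.14% at 6 h. At 3 h against 0 h, 6 fell and 1 rose (27.5% and 26.9% of all genes tested), with a median of -0.22 against -0.06. At 6 h against 3 h, 6 fell and 0 rose (20.3% and 20.5% of all genes tested), with a median of -0.55 against -0.03. In bulk RNA, fewer cells of a type and less RNA per cell cannot be told apart.

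**Figure D1:**
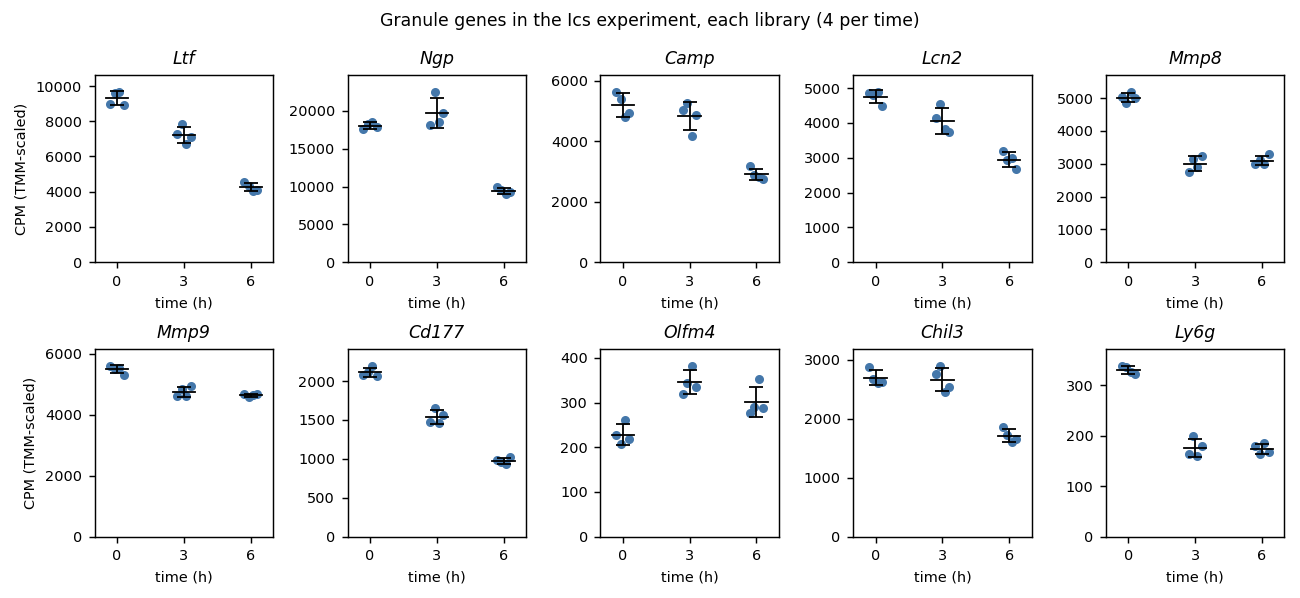
TMM-scaled CPM (vertical axis, from 0) of each granule gene at 0, 3 and 6 h of the Ics experiment. Points are the 4 libraries of a time, horizontal lines their mean and bars the SD. At 6 h all 4 libraries lie below all 4 at 0 h for 9 genes and above them for Olfm4.

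Ltf (chromosome 9, 111019271 to 111042767 on GRCm38, as all positions here) codes lactoferrin, the iron-binding protein of specific granules. Levels are in CPM scaled with TMM factors, as all Ics values here unless stated otherwise. Ltf had 8985, 9599, 9683 and 8949 at 0 h. It had 7274, 7824, 6694 and 7096 at 3 h, and 4526, 4334, 4059 and 4092 at 6 h. The 3 times did not overlap, each lower than the one before. The log2 change was -0.37 ± 0.0564 at 3 h (SE, n = 4 and 4 libraries, adjusted p = 6.74e-05 in edgeR) and -1.13 ± 0.057 at 6 h against 0 h (adjusted p = 6.05e-10). From 3 to 6 h it was -0.76 ± 0.0566 (adjusted p = 1.26e-07).

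Ngp and Camp lie on chromosome 9, as Ltf does, and code small antimicrobial proteins of the cathelicidin family. Ngp (110419747 to 110423012), the neutrophilic granule protein, had 17575, 18238, 18511 and 17864 CPM at 0 h, 18075, 22534, 18582 and 19726 at 3 h, and 9914, 9528, 8990 and 9285 at 6 h. The values at 0 and 3 h overlapped, while every value at 6 h was below both. Ngp did not pass at 3 h (0.13 ± 0.0627, adjusted p = 0.0974), a value that turned to -0.12 when libraries were scaled by their totals alone, and fell by 1.07 from 3 to 6 h (SE 0.0634, adjusted p = 1.45e-08).

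Camp (109847379 to 109849617), the cathelicidin gene, had 5646, 5394, 4805 and 4941 CPM at 0 h, 5043, 5261, 4174 and 4876 at 3 h, and 3178, 2870, 2808 and 2766 at 6 h. The first 2 times overlapped here too. The log2 change was -0.10 ± 0.0749 at 3 h, which did not pass (adjusted p = 0.264), and -0.74 ± 0.0753 from 3 to 6 h (adjusted p = 2.66e-06). Over the whole 6 h Ngp fell by 0.94 and Camp by 0.84 on the log2 scale.

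Lcn2 (chromosome 2, 32384633 to 32388252) codes lipocalin 2, which withholds iron by binding bacterial siderophores and is found in a complex with the Mmp9 protein. It had 4851, 4808, 4899 and 4475 CPM at 0 h, 4143, 4542, 3819 and 3729 at 3 h, and 3181, 2944, 2997 and 2667 at 6 h. Single libraries at 0 and 3 h overlapped, and those at 6 h lay below both. The change was -0.23 ± 0.0679 at 3 h (adjusted p = 0.0103) and -0.69 ± 0.0682 at 6 h against 0 h (adjusted p = 6.67e-07), with -0.46 ± 0.068 between 3 and 6 h.

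Both metalloproteinase genes reached their 6 h level by 3 h. Mmp8 (chromosome 9, 7558456 to 7568485), neutrophil collagenase, had 5025, 4845, 5200 and 5004 CPM at 0 h, 2737, 3140, 2901 and 3240 at 3 h, and 2990, 3125, 2984 and 3298 at 6 h. All values at 3 and 6 h were below those at 0 h and overlapped each other. Its change was -0.74 ± 0.0573 at 3 h (adjusted p = 5.45e-08) and 0.04 ± 0.057 from 3 to 6 h, which did not pass (adjusted p = 0.568). Mmp9 (chromosome 2, 164940780 to 164955850), gelatinase B and the name-giving enzyme of gelatinase granules, moved least of the genes that fell over 6 h. It had 5606, 5505, 5549 and 5304 CPM at 0 h, 4611, 4852, 4623 and 4948 at 3 h, and 4682, 4576, 4651 and 4673 at 6 h. Each later value was below all 4 at 0 h, with a change of -0.21 ± 0.0413 at 3 h (adjusted p = 0.000647) and -0.24 ± 0.0413 at 6 h against 0 h (adjusted p = 0.000153). From 3 to 6 h Mmp9 was at -0.03 ± 0.0412 and did not pass.

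The surface protein genes took separate courses. Cd177 (chromosome 7, 24743983 to 24760311) codes a membrane protein of specific granules and the cell surface that binds the adhesion molecule PECAM-1. It had 2081, 2118, 2196 and 2068 CPM at 0 h, 1480, 1659, 1468 and 1567 at 3 h, and 990, 956, 931 and 1026 at 6 h. The times did not overlap, and the change was -0.46 ± 0.0509 at 3 h and -0.66 ± 0.051 from 3 to 6 h (adjusted p = 2.71e-06 and 1.81e-07). Ly6g (chromosome 15, 75155240 to 75159126), whose product is the surface antigen used to sort mouse neutrophils, had 339, 337, 328 and 323 CPM at 0 h, 165, 199, 159 and 180.1 at 3 h, and 181, 165, 185 and 167 at 6 h. Its values at 3 and 6 h overlapped and were below every value at 0 h, with -0.91 ± 0.0676 at 3 h (adjusted p = 3.29e-08) and -0.01 ± 0.0674 from 3 to 6 h (adjusted p = 0.907, not passed).

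Chil3 (chromosome 3, 106147554 to 106167564) codes the chitinase-like protein Ym1, made by neutrophil precursors, monocytes and macrophages. It had 2878, 2680, 2605 and 2622 CPM at 0 h, 2752, 2896, 2458 and 2541 at 3 h, and 1852, 1729, 1602 and 1662 at 6 h. Values at 0 and 3 h overlapped and those at 6 h were lower than both, with -0.02 ± 0.062 at 3 h (adjusted p = 0.819, not passed) and -0.64 ± 0.0623 from 3 to 6 h (adjusted p = 1.70e-06). Of the 31-base stretches of its transcripts, 41.5% also occur in other genes, chiefly Chil4, so its estimated counts depend on how shared reads were assigned. The other members shared 9.55% (Ly6g), 6.93% (Cd177), 4.2% (Olfm4, with the overlapping gene Gm6999) or 0%.

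Olfm4 (chromosome 14, 79984081 to 80023139) codes olfactomedin 4, a glycoprotein of specific granules that is known to be present in only a subset of neutrophils. It was the only member that rose. The libraries had 226, 208, 261 and 218 CPM at 0 h, 319, 344, 382 and 335 at 3 h, and 277, 290, 352 and 289 at 6 h. Every value at 3 and 6 h was above all 4 at 0 h, while the later times overlapped. The change was 0.60 ± 0.0865 at 3 h (adjusted p = 3.69e-05) and 0.40 ± 0.0864 at 6 h against 0 h (adjusted p = 0.000995). From 3 to 6 h it was -0.19 ± 0.0862 and did not pass (adjusted p = 0.0889), but passed without replicate 3 of 6 h (-0.27, adjusted p = 0.0144 in edgeR).

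**Figure D2:**
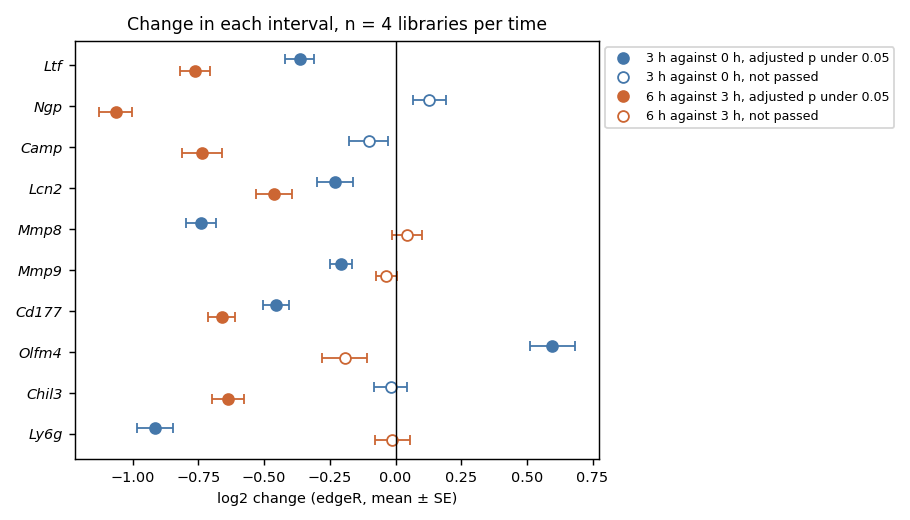
The log2 change of each granule gene (horizontal axis) from 0 to 3 h and from 3 to 6 h, with its SE from 4 libraries per time. Filled points passed adjusted p under 0.05 in edgeR and open points did not. Mmp8, Mmp9 and Ly6g passed only in the first interval, Ngp, Camp and Chil3 only in the second, and Ltf, Lcn2 and Cd177 in both.

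The members thus passed the test in different intervals: 3 only from 0 to 3 h among those that fell, 3 only from 3 to 6 h, and 3 in both. Passing in one interval and not in the other is not a test of the difference between intervals, and the intervals share the libraries at 3 h. In groups that did not overlap, 5 members were lower at 3 h and 9 at 6 h than at 0 h, against 24.9% and 27.6% of all genes tested, and 1 member, Olfm4, was higher at both (24.8% and 27.7%). From 3 to 6 h, 6 members were lower and 0 higher, against 18.3% and 18.9% of all genes. When libraries were scaled by their totals alone, the median of all genes was -0.30 at 3 h and -0.22 at 6 h against 0 h, in place of -0.06 at both, and the share of rises among all called genes went from 49.4% to 29.8% at 3 h, from 49.3% to 37.4% at 6 h, and from 50.1% to 61.7% for 6 h against 3 h. Camp (-0.35) and Chil3 (-0.27) then passed at 3 h as well, so the count of members that fell at 3 h was 8 in place of 6.

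Per kilobase of the longest coding transcript, the levels at 0 h ran from Ngp (14768 ± 337 CPM per kb, SD, n = 4) through Camp (6855 ± 517), Lcn2 (5200.4 ± 210), Ltf (3392 ± 142) and Mmp8 (2070 ± 60.0) to Chil3 (1752 ± 81.5), Mmp9 (1729 ± 41.4), Cd177 (780 ± 21.3), Ly6g (352 ± 8.38) and Olfm4 (81.5 ± 8.27). The ranges of Chil3 and Mmp9 overlapped, and no other neighbours did. At 6 h the first 4 places were unchanged, and Mmp9 (1463 ± 15.3) stood above Mmp8 (1278 ± 60.9), which had been above it at 0 h, and both stood above Chil3 (1112 ± 69.7).

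Markers of other cells were measured in the same libraries (sums in CPM from library totals), and their part in the changes of the granule genes was not tested. All 7 red cell markers fell, their sum going from 115 to 297 CPM at 0 h to 8.18 to 19.6 at 6 h. Of 4 platelet markers 3 fell, and the sum went from 19.5 to 31.1 to 3.65 to 7.71 CPM. Of 9 monocyte markers 6 fell and 1 (Csf1r) rose at 6 h, with sums of 758 to 857 CPM at 0 h and 722 to 788 at 6 h. Of 3 macrophage markers tested, 2 rose (Adgre1 by 2.80 and Cd68 by 1.62 on the log2 scale), and the sum of all 6 went from 57.3 to 63.2 to 243 to 276 CPM, with C1qa and C1qb at 0 at 6 h. All 3 eosinophil markers fell at 6 h, from sums of 11.9 to 23.8 to 3.54 to 9.12 CPM. Of 4 fibroblast markers 3 fell and 1 rose, with sums of 21.8 to 33.4 CPM at 0 h and 29.2 to 40.7 at 6 h. The sums of the T cell, B cell, dendritic cell, mast cell and progenitor markers were 22.1 CPM or less in every library, and of the 12 of these genes tested 4 fell and 0 rose at 6 h. The keratinocyte genes Krt5, Krt14, Krt1 and Lor were at 0. Of 8 neutrophil markers that are not granule genes, 1 rose and 3 fell at 6 h, with sums of 58406 to 65740 CPM at 0 h and 42070 to 47627 at 6 h. TMM-scaled means at 0 and 6 h were 732 and 208 CPM for Trem1, 28575 and 20662 for S100a9 and 6730 and 5433 for Retnlg. Csf3r went the other way, from 3974 to 4839 CPM, and S100a8 was at -0.14 ± 0.0885 and did not pass.

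Other granule genes moved in both directions. Of 20 further genes listed for specific and gelatinase granules, 19 were tested, and 8 rose and 11 fell at 6 h against 0 h (7 and 11 at 3 h), with a median of -0.46 against -0.06 over all genes. Cfp, the complement factor properdin, fell by 1.23 on the log2 scale, and Lrg1, a leucine-rich glycoprotein released from neutrophils, fell by 2.30. Annexin A1 (Anxa1) fell by 1.00 and haptoglobin (Hp), a haemoglobin-binding protein of specific granules, by 1.00 (its level was 1348 CPM at 0 h, 733 at 3 h and 675 at 6 h). Slc11a1, a metal transporter of granule membranes, rose by 1.91 ± 0.107. Arg2 rose by 1.52 ± 0.0669, but it codes the mitochondrial arginase 2 and stands in this list without being a granule protein gene. The primary granule genes, which precede the members in maturation, had 6 of 7 fall and 0 rise at 6 h, with a median of -2.58. Mpo fell by 3.67, Elane by 3.58, Prtn3 by 2.95, Prss57 by 2.43 and Ms4a3 by 2.07, from levels of 6.84 (Prss57) to 89.6 CPM (Mpo) at 0 h, far below those of most members.

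Transcription factors tied to granule genes had 3 of 10 rise and 4 fall at 6 h, near the 29.6% and 30.4% of all genes, with a median of -0.0031. Cebpe was 116 ± 4.65 CPM at 0 h, 78.0 ± 8.23 at 3 h and 59.5 ± 7.47 at 6 h, a fall of 0.57 at 3 h and 0.96 at 6 h against 0 h (adjusted p = 6.59e-05 and 3.19e-07). The gene of its relative C/EBP alpha, Cebpa, rose by 1.63 ± 0.0834 and Cebpd fell by 0.38. Runx1 fell by 1.02 and the repressor gene Cux1 rose by 0.35. Of 14 genes of the machinery that moves and fuses granules, 5 rose and 5 fell at 6 h, also near the shares of all genes, with a median of 0.14. The membrane fusion gene Stx4a rose by 1.02 ± 0.0704 and its regulator Stxbp3 by 0.63, while the small GTPase gene Rab27a fell by 0.52, its effector gene Sytl1 by 0.73 and Vamp2 by 0.57. Of 10 partners, inhibitors and receptors of the members, 8 were tested, and 5 rose and 1 fell at 6 h, with a median of 0.38. Both chains of the integrin Mac-1, which pairs with CD177, were among them, Itgam at 0.72 ± 0.0546 and Itgb2 at 0.32 ± 0.0464. The formyl peptide receptor gene Fpr2 rose by 0.44, Fcgr3 by 0.98 and Lrp1, a scavenger receptor that binds lactoferrin, by 1.78. Timp1, the inhibitor of the Mmp9 protein, was below the filter on low counts and was not tested, with 0.121 to 0.224 CPM from library totals at 0 h.

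Courses over the 12 Ics libraries were compared among 8317 genes in CPM from library totals, without TMM factors. The genes most like the mean of the 9 members other than Olfm4 were Scp2 (Pearson r = 0.995), C1rl, Ccar2, Ly6c2 and Smim5. Those most like Olfm4 were Coq4 (r = 0.922), Etfrf1, Ndfip2, Arid4b and Brox. The 12 points fall into 3 times, so these values order genes and test nothing.

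In the neutrophil libraries with neutrophil marks, the 10 genes were far more abundant than in blood or skin. The values below are CPM from library totals in the 8 neutrophil libraries whose marks matched their label. Ltf ranged from 15261 to 25487 with a median of 19262, Ngp from 18196 to 28134 and Camp from 11313 to 14522. Mmp9 ranged from 2333 to 5593 with a median of 4427, and Ly6g from 401 to 823 with a median of 529. Over the 10 libraries with neutrophil marks, whatever their label, the 10 genes held 5.91 to 8.69% of all counts. In the 10 libraries with blood marks, where haemoglobin transcripts held 89.2 to 98.3% of counts, the 10 genes summed to 5.23 to 23.2 CPM.

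The members differed in how much they varied between these 8 neutrophil libraries. Camp varied least, with its highest library 1.28 times its lowest, and Olfm4 most, at 4.38 times, followed by Mmp8 at 3.27 and Mmp9 at 2.40 times. Ngp, Lcn2, Mmp8, Cd177, Olfm4 and Ly6g were highest in the same library, PBS replicate 2. Mmp8, Olfm4 and Ly6g had 2917, 106 and 823 CPM there. That library had the lowest Mpo of the 8, at 101 CPM. Lcn2, Mmp8, Mmp9, Olfm4 and Chil3 were lowest in PBS replicate 5. Mmp8, Mmp9 and Olfm4 had 892, 2333 and 24.2 CPM there, and this library had the highest Mpo, at 764 CPM. Elane was also lowest in PBS replicate 2 but highest in IVIG replicate 3. Cxcr2 was highest in IVIG replicate 2 and lowest in IVIG replicate 4. PBS replicate 2 was also the only neutrophil library whose title begins with S2. The parts of maturation stage and of the title prefix in this spread were not tested.

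**Figure D3:**
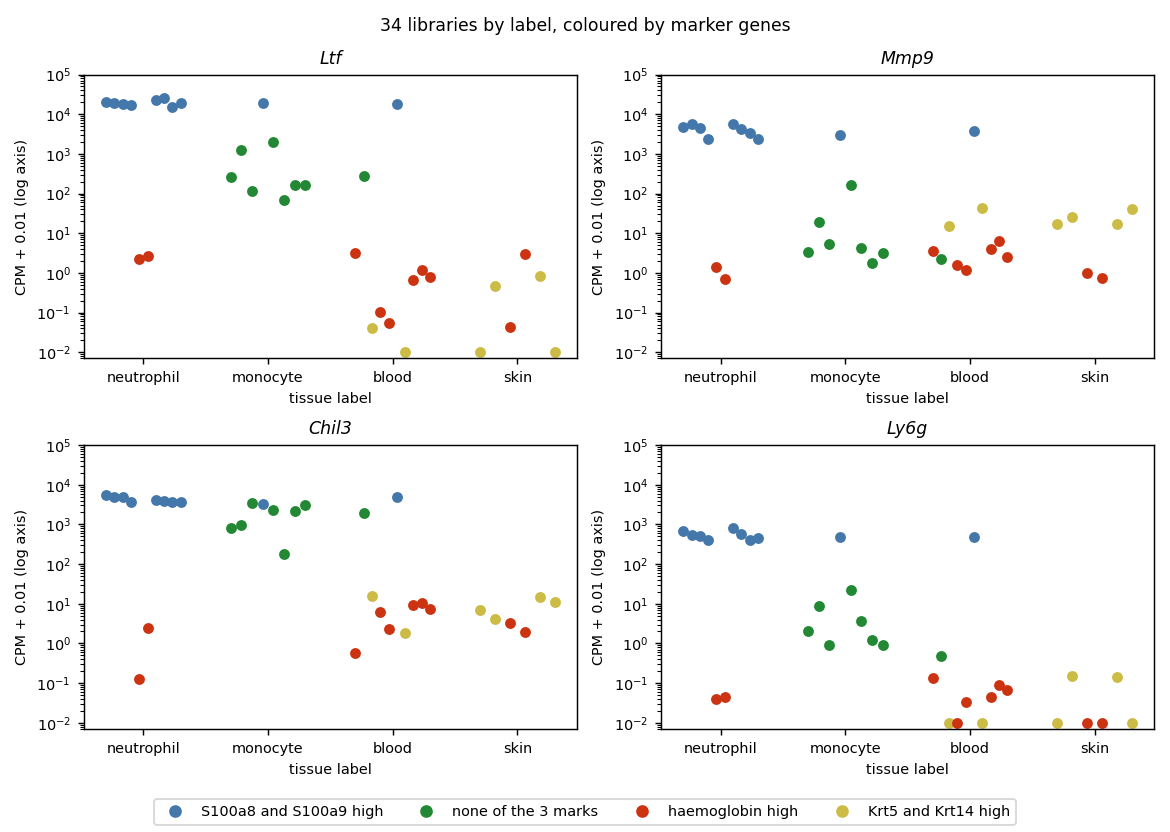
CPM from library totals plus 0.01 (vertical log axis) of Ltf, Mmp9, Chil3 and Ly6g in the 34 libraries outside the Ics experiment, by tissue label. Each point is 1 library and its colour gives the marker genes it expressed. Libraries whose marks go against their label are the blue, green and yellow points under blood, the blue point under monocyte and the red points under neutrophil and skin.

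Monocyte libraries held fewer granule transcripts than neutrophil libraries, and unequally so between genes. In the 7 monocyte libraries whose marks matched their label, the lowest, median and highest CPM were 68.6, 168 and 2038 for Ltf, 1.79, 4.29 and 164 for Mmp9, 0.913, 2.06 and 22.7 for Ly6g, and 176, 2168 and 3561 for Chil3. The ranges of these 7 and of the 8 matching neutrophil libraries did not overlap for Ltf, Mmp9 or Ly6g. For Chil3 the highest of the 7 (3561 CPM) lay just under the lowest of the 8 (3594 CPM). Over the 10 libraries with neutrophil marks, whatever their label, the lowest Chil3 was 3224 CPM, so its ranges then overlapped. The share of all genes without overlap was not counted here. With all libraries as labelled, 0 of 10 members passed against monocytes (a rise was called for 4.51% of 17644 genes), with changes from 0.79 ± 1.01 for Chil3 to 3.59 ± 1.45 for Olfm4. Without the 9 libraries against their label, all 10 were higher in neutrophils (a rise was called for 15.4% of 18047 genes). The limit on S100a8 plus S100a9 also separated libraries rich in the members, so part of this follows from the sorting. No marker of monocytes was required, and monocyte PBS replicate 2, which was kept, had 8070 CPM against the limit of 10000. The difference was then 6.88 ± 0.918 on the log2 scale for Mmp9, 6.06 ± 0.738 for Ly6g, 4.86 ± 0.915 for Olfm4, 4.83 ± 0.848 for Ltf and 4.40 ± 0.412 for Mmp8. It was 3.99 ± 0.608 for Lcn2, 3.50 ± 0.618 for Ngp, 3.38 ± 0.356 for Cd177 and 2.77 ± 0.594 for Camp. Chil3 differed least, at 1.28 ± 0.369 (n = 8 and 7 libraries, adjusted p = 0.0105 in edgeR). With the prefix of the titles as a term, an alternative chosen after seeing the data, 8 of 10 passed as labelled, all but Cd177 and Chil3 (a rise was called for 4.81% of genes), and 10 of 10 without the 9 libraries (15.7%).

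The proportions of the members to Ltf within a library differed accordingly. The ratio of Chil3 to Ltf was 0.157 to 0.273 in the 10 libraries with neutrophil marks and 0.755 to 30.2 in the 8 with none of the marks. The ratio of Mmp9 to Ltf was 0.122 to 0.289 in the former and 0.00801 to 0.0807 in the latter, without overlap in either case. The Ly6g ratio overlapped, at 0.022 to 0.036 and 0.0017 to 0.053. Monocyte PBS replicate 2, which had the highest Ltf of the 7 monocyte libraries, also had the highest Mmp9, Ly6g and Olfm4 (164, 22.7 and 9.35 CPM), and the part of admixed neutrophils in these values was not tested.

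**Figure D4:**
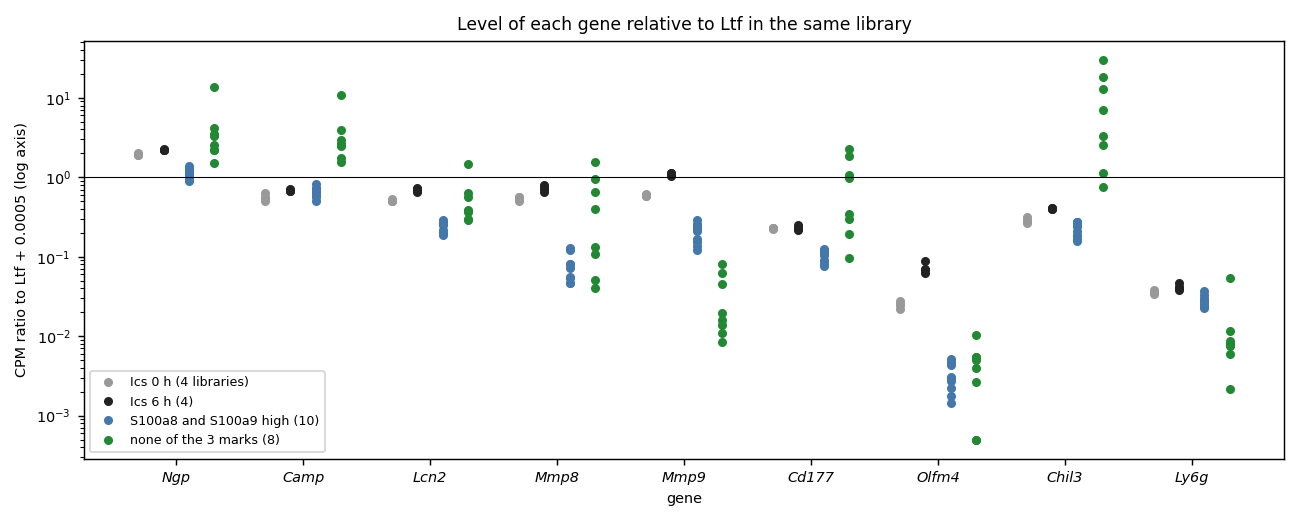
Ratio of each granule gene to Ltf in the same library, plus 0.0005 (vertical log axis). Shown are Ics libraries at 0 and 6 h and libraries outside Ics with neutrophil marks or with none of the 3 marks. Each point is 1 library. Chil3 lies highest in libraries with none of the marks and Mmp9 lowest. Ngp, Lcn2, Mmp8, Mmp9, Cd177 and Olfm4 are higher in Ics libraries than in those outside Ics with neutrophil marks.

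Unstimulated Ics libraries and libraries outside Ics with neutrophil marks held the granule transcripts in different proportions. Ics libraries were not classed by the marks, but at 0 h they also met the limit for neutrophils. S100a8 plus S100a9 was 42129 to 49446 CPM there, with haemoglobin at most 0.0235% of counts and Krt5 plus Krt14 at 0. The 10 genes held 5.67 to 5.95% of counts in the former and 5.91 to 8.69% in the latter. The ratio of Mmp8 to Ltf was 0.505 to 0.559 at 0 h of Ics and 0.046 to 0.128 in the 10 libraries with neutrophil marks. The ratio of Mmp9 to Ltf was 0.573 to 0.624 against 0.122 to 0.289, and that of Olfm4 to Ltf 0.0216 to 0.0269 against 0.00094 to 0.0047. The ratios of Ngp, Lcn2 and Cd177 were also higher in Ics without overlap, while those of Camp, Chil3 and Ly6g overlapped. All these ratios share Ltf, which was itself lower in Ics. It was 9804 to 10508 CPM from library totals at 0 h against 15261 to 25487 in the 10 libraries. Which cells were used in Ics is not stated, the experiments may differ in other ways, and no test was made between them.

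Blood and skin libraries with matching marks held few of these transcripts. In the 6 such blood libraries Ltf was 0.0463 to 3.15 CPM, Mmp9 1.20 to 6.38 and Chil3 0.581 to 10.3. In the 4 such skin libraries Ltf was 0 to 0.804 CPM, Mmp9 17.4 to 40.5 and Chil3 4.01 to 14.7. Totals matter here, since haemoglobin held 89.2 to 93.9% of counts in these blood libraries. Relative to the counts outside haemoglobin, Mmp9, which keratinocytes and other skin cells also make, was 14.8 to 79.8 CPM in blood, overlapping its 17.4 to 40.5 in skin. Ltf was 0.762 to 42.8 CPM in blood on that scale, still far below neutrophils. A count of 3 corresponds to 0.0695 to 0.158 CPM in a library, so values near or under that say little, as for Ly6g in blood and skin (0 to 0.137 CPM). Olfm4 was at 0 in all 10 of these libraries, and its mean of 57.6 CPM in neutrophils was at least 534-fold higher than blood and 560.0-fold higher than skin at 3 counts per library, with haemoglobin in the blood totals and for counting error only. As labelled, 2 of 10 members, Lcn2 and Mmp8, were higher in neutrophils than in blood (6.33% of all genes were) and 10 of 10 higher than in skin (14.1%). Without the 9 libraries it was 10 of 10 against blood (21.7%) and 10 of 10 against skin (25.1%). With the prefix as a term, 10 of 10 were higher than in blood (8.57%) and in skin (14.9%) as labelled, and again without the 9 libraries (22.2% and 22.9%). In the matching blood and skin libraries Olfm4 was at 0 and Ly6g at most 0.137 CPM. Ltf and Ngp reached only 0.804 and 0.411 CPM in skin. In these comparisons such members passed the filter through libraries where they are high, so their calls were largely fixed in advance.

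No granule gene passed the test between IVIG and PBS in any tissue, as labelled or without the 9 libraries, and as labelled 0% of all genes were called in each tissue by edgeR. Without those libraries it was 0.0477% in blood, 0.0236% in skin and 0% in neutrophils and monocytes. Leaving them out does not settle the treatment labels, since 22 of 34 libraries changed treatment in the sort order of the descriptions. The absence of calls therefore says little about IVIG. At an unadjusted p under 0.05 there were 81 of 11339 genes tested in blood, 73 of 14033 in neutrophils, 286 of 14415 in monocytes and 157 of 16171 in skin. Each is below the 1 in 20 that chance gives, and 2, 0, 1 and 0 of the members tested were among them. DESeq2 called 1, 0, 3 and 1 genes, none of them a member. In neutrophils the 10 members ranged from -0.20 to 0.23 with a median of 0.03 on the log2 scale, against -0.02 over all genes. The median was 0.04 without the 2 libraries with blood marks, and -0.28 to 0.39 when each library was left out in turn. Ltf was 20491, 19327, 17637, 17487 and 2.19 CPM with IVIG and 2.70, 22805, 25487, 15261 and 19197 with PBS. The low value in each group is a library with blood marks, and the other 4 of each group overlapped. Mmp9 was 4805, 5593, 4551, 2360 and 1.41 CPM with IVIG and 0.685, 5558, 4303, 3317 and 2333 with PBS. Ly6g was 667, 555, 503, 415 and 0.0288 CPM with IVIG and 0.0342, 823, 563, 401 and 452 with PBS, again overlapping.

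In monocytes the median of the members was -2.15 and their range -5.76 to -0.31. PBS replicate 1, which had neutrophil marks, held 19585 CPM of Ltf, 2966 of Mmp9 and 473 of Ly6g. The other PBS libraries had 2038, 68.6, 168 and 166 CPM of Ltf and the IVIG libraries 254, 1246 and 118. For Mmp9 these were 164, 4.29, 1.79 and 3.15 CPM with PBS and 3.42, 19.2 and 5.36 with IVIG, and for Ly6g 22.7, 3.62, 1.19 and 0.921 with PBS and 2.06, 9.02 and 0.913 with IVIG. These overlapped, and the median without PBS replicate 1, the only monocyte library against its label, was -0.75. In blood the median of the 8 members tested was -4.73 (range -5.95 to -1.53), and it was 1.74 without PBS replicate 1 and -0.40 without all 4 libraries against their label. Blood PBS replicate 1, with neutrophil marks, had 18246 CPM of Ltf, 3845 of Mmp9 and 493 of Ly6g, whereas the other PBS libraries had 0 to 1.15 CPM of Ltf, 2.55 to 42.7 of Mmp9 and 0 to 0.0781 of Ly6g. The IVIG libraries of blood had 3.15, 279, 0.0315, 0.0941 and 0.0463 CPM of Ltf, 3.48, 2.23, 15.4, 1.60 and 1.20 of Mmp9, and 0 to 0.461 of Ly6g. In skin the median of the 7 members tested was -0.27 (range -7.24 to 1.18). It was 1.20 without PBS replicate 1, -2.23 without IVIG replicate 3 (both with blood marks) and -0.50 without both. Ltf was 0, 0.445 and 0.0342 CPM with IVIG and 2.92, 0.804 and 0 with PBS, Mmp9 was 17.4, 25.4 and 0.959 with IVIG and 0.753, 17.4 and 40.5 with PBS, and Ly6g was 0 to 0.137 with IVIG and 0 to 0.134 with PBS. Since many names may stand for another library, these values compare the libraries as named.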

How the data were processed

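Expression was measured in 46 bulk RNA libraries. According to the submitters' processing notes, kallisto 0.46.1 and GRCm38 were used. The authors deposited 1 table of estimated counts, described by its name as length-scaled TPM, with library totals that differ. The steps from transcripts to gene symbols, and any filter, are not given in the sources used here. Estimated counts were rounded. Libraries were grouped by tissue, condition and title. The treatment field contradicted these and was not used.

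The 3 Ics times were fitted together, IVIG and PBS within each tissue, and the tissues in 1 fit, with edgeR 4.0.16 under R 4.3.3 (quasi-likelihood F test, TMM scaling, filterByExpr with a minimum count of 10, p adjusted by Benjamini-Hochberg over every gene tested, limit 0.05). A gene is said to rise or fall only past that limit. SE is the log2 change divided by the square root of F. TMM factors of Ics libraries were 0.912 to 1.12. A change is relative to the centre of all genes. The procedure was tested on simulated data. The members, gene lists, marker limits and tests were chosen with earlier results of these data known. By the naming rule the text gives all 10 members, of each list up to 5 genes with the smallest p at 6 h against 0 h plus Cebpe, Hp and Timp1, and 5 genes most like each course (at least 5 CPM, log2 of CPM plus 1). Genes named from the marker lists were chosen after their values were seen. Positions and transcript lengths come from GENCODE vM21, upstream sequence from RefSeq. Of 77 library pairs within groups, 0 were identical. Alternatives were other scaling, DESeq2 1.42.0, no filter, a replicate block, leaving out libraries, PBS libraries only and, added after seeing the data, the prefix of the titles as a term.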

Additional observations from a re-analysis of the deposited data

Results flagged for a closer look

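Of 45 sets of values within a group of 4 or 5 libraries, 11 had a library set apart from the others by Dixon's test, where chance gives about 1 in 20. In the Ics experiment this was 1 of 30 sets, Olfm4 at 6 h, where replicate 3 had 352 CPM and the others 277 to 290. The other 10 sets belong to the libraries outside Ics. Blood PBS replicate 1, with neutrophil marks, had 18246 CPM of Ltf against 0 to 1.15 in the other 4, 3845 of Mmp9 against 2.55 to 42.7, and 493 of Ly6g against 0 to 0.0781. Monocyte PBS replicate 1, also with neutrophil marks, had 19585 CPM of Ltf against 68.6 to 2038, 2966 of Mmp9 against 1.79 to 164, and 473 of Ly6g against 0.921 to 22.7. Blood IVIG replicate 2, with none of the tissue marks, had 279 CPM of Ltf against 0.0315 to 3.15 and 0.461 of Ly6g against 0 to 0.122. Blood IVIG replicate 3, with skin marks, had 15.4 CPM of Mmp9 against 1.20 to 3.48. Neutrophil IVIG replicate 5, with blood marks, had 2.19 CPM of Ltf against 17487 to 20491. These 5 libraries are among the 9 whose marks go against their label.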

How the results depend on the processing

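In the Ics experiment the count of members called was 7 at 3 h, 10 at 6 h and 6 to 7 from 3 to 6 h when each library was left out in turn, and the 9 members that fell and the 1 that rose by 6 h did so under every alternative run. Reversals concerned values that had not passed: Ngp at 3 h (-0.12), Mmp9 (0.0503) and Ly6g (0.0725) from 3 to 6 h with totals alone, Chil3 at 3 h with RLE size factors or DESeq2 (0.0043 in both), and Ly6g from 3 to 6 h without a filter (0.012). Leaving out a library gave -0.0569 to 0.0234 for Chil3 at 3 h, -0.0424 to 0.0535 for Ly6g and -0.0373 to 0.0116 for Mmp9 from 3 to 6 h. The cause was not tested.

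Titles of the Ics libraries share numbers across times. Same-numbered libraries correlated at 0.048 to 0.184 in their deviations, over 0.1 in 8 of 12 pairs, and other pairs at -0.098 to 0.017. In 12 of 12 libraries the best match had the same number, a hint from the data and not from the labels. With the replicate block Olfm4 fell from 3 to 6 h (-0.20, adjusted p = 0.00601 in edgeR), and the other calls of members were the same as without it.

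The median of the members between IVIG and PBS ranged over left-out libraries from -5.77 to 1.74 in blood (1.74 without PBS replicate 1), from -0.28 to 0.39 in neutrophils, from -3.00 to -0.75 in monocytes and from -2.23 to 1.20 in skin (1.20 without PBS replicate 1). DESeq2 called 1 gene in blood, 3 in monocytes and 1 in skin, and without the libraries against their label 5 were called in blood and 4 in skin. Against monocytes, genes called were 34 with totals alone, 3021 with DESeq2, 4929 without the 9 libraries and 0 with PBS libraries only, where the main count was 1402, and members called were 2 with DESeq2 and 10 without the 9 libraries. Against blood, genes called were 2108 with totals alone, 7718 without the 9 libraries and 0 with PBS libraries only, against 4659, and members called were 0 with totals alone, 8 with DESeq2, 1 without a filter, 10 without the 9 libraries and 0 with PBS libraries only. Against skin, genes called were 4157 with totals alone and 1919 with PBS libraries only, against 7331, and members called were then 2 with PBS libraries only. With the prefix of the titles (S2, S3 or S5) as a term, chosen after seeing the data, members called were 8 against monocytes, 10 against blood and 10 against skin, and without the 9 libraries 10 in each, with 4017 genes called against monocytes and 7681 against blood. The same term gave medians between IVIG and PBS of -1.12 in blood, 0.61 in neutrophils and -1.67 in monocytes, with 0 genes called in each.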
